A study of Mus musculus with 7 samples.

Results

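The genes described here are the 10 members of the mouse major histocompatibility complex (MHC) class I and peptide-loading pathway that were listed by name: the heavy chain genes H2-K1, H2-D1, H2-Q7, H2-T22 and H2-T23, the light chain gene B2m, the peptide transporter genes Tap1 and Tap2, the loading factor gene Tapbp and the transactivator gene Nlrc5. Each was matched by its symbol to an Entrez identifier of the count files. All 10 were found among the 27179 genes of the files, and all 10 passed the filter on low counts that kept 10863 genes. They were read in 7 libraries of total RNA from sorted CD8 dendritic cells of C57BL/6 mice, the cells of the type 1 conventional lineage (cDC1) that are known for presenting the antigens of dead cells on class I. CD103 negative cells gave 3 libraries and CD103 low cells gave 2, all labelled untreated. CD103 high cells gave 2 libraries, both labelled as treated with CpG, DNA that engages Toll-like receptor 9; the name CpG CD103 high stands for this group. Treatment with CpG and a high level of CD103 therefore cannot be told apart. No source used here gives the tissue, the CpG dose or the time. Each label carries a date as well: both CpG CD103 high libraries and CD103 negative replicates 1 and 2 belong to 2012, and CD103 negative replicate 3 and both CD103 low libraries to 2013.

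MHC class I molecules show peptides from inside the cell to CD8 T cells. The proteasome cuts proteins into peptides, the TAP1 and TAP2 subunits carry these into the endoplasmic reticulum, and tapasin (the product of Tapbp) holds an empty heavy chain with β2-microglobulin (B2m) at the transporter until a peptide fits. H2-K1 and H2-D1 encode the classical heavy chains. H2-Q7, H2-T22 and H2-T23 encode non-classical ones: H2-Q7 the Qa-2 antigen, H2-T22 a ligand of some γδ T cell receptors, and H2-T23 Qa-1, which is read by receptors of natural killer cells. NLRC5 is a nuclear protein that drives transcription of class I genes through a factor complex bound at their promoters, and its own gene responds to interferon.

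The sort labels were matched by Itgae, which encodes the αE chain of CD103: 1019 and 992 CPM in CpG CD103 high, 346 and 375 CPM in CD103 low and 54.3 to 62.7 CPM in CD103 negative, where CPM is counts per 1000000 counts of the scaled library. Total counts ran from 4474211 to 4629181 per library. All 10 defining cDC1 markers were present, with summed levels of 14107 to 15642 CPM in CD103 negative, 16394 to 16928 CPM in CD103 low and 22514 to 22630 CPM in CpG CD103 high. Markers of other cells also differed between groups. The 7 cDC2 markers summed to 15.5 to 24.4 CPM in CpG CD103 high against 38.4 to 87.0 CPM in CD103 negative, and the 6 erythroid and platelet markers in the files to 22.9 to 25.5 CPM against 1.29 to 3.19 CPM. In the same order, the 8 macrophage markers summed to 22.6 to 36.6 against 74.2 to 97.9 CPM, the 8 monocyte and neutrophil markers to 48.6 to 83.0 against 17.3 to 70.0 CPM and the 8 B cell markers to 484 to 516 against 515 to 566 CPM, most of the last from Ighm. Calls in that comparison were made at an adjusted p under 0.05. Of the markers tested, 4 of 6 for cDC2, 2 of 5 for macrophages, 3 of 5 for B cells and 1 of 4 for plasmacytoid cells were lower. Higher were 4 of 4 erythroid and platelet and 3 of 4 monocyte and neutrophil markers. Of the defining cDC1 markers, 7 of 10 were higher and 0 lower. That list and its sums include Itgae, whose level follows the sort itself. Among all genes tested, 15.6% were higher and 12.7% lower. The B cell gene Cd79a was at 0 in 5 libraries and at most 1.15 CPM. The 8 T cell markers reached 48.5 CPM in CD103 low replicate 2 and at most 11.4 CPM in the other 6. CD103 negative replicate 3 held Siglech at 19.2 CPM and Cd209a at 21.3 CPM, above the other 6 libraries. The part of these cells in the results below was not tested, and in bulk RNA fewer cells of a type and less RNA per cell cannot be told apart.

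Of the 10 genes, 8 lie on chromosome 17 (GRCm38.p6, the RefSeq table of the mm10 build). Tapbp spans positions 33919478 to 33929290, H2-K1 33996012 to 34000619, Tap1 34187556 to 34197225 and Tap2 34204479 to 34216321. H2-D1 spans 35263094 to 35267497, H2-Q7 35439140 to 35443773, H2-T23 36029977 to 36032701 and H2-T22 36037128 to 36042742. B2m is on chromosome 2 (122147687 to 122153082) and Nlrc5 on chromosome 8 (94434335 to 94527272).

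Promoter sequences are shown because class I genes are known to share a proximal control region, with an NF-kB site and an interferon-stimulated response element upstream of an SXY module on which NLRC5 acts. RefSeq promoters of 250 bases before to 50 after the start were matched for 8 of the 10 genes (Tap2 and Nlrc5 were not matched). In these, 5 motifs were searched on both strands. They were the interferon-stimulated response element core GAAANNGAA, the gamma-activated site TTCNNNGAA and the NF-kB motif. The others were CTGATTGG, searched as letters of a Y box, and TGACG, the core of a cyclic AMP response element. Each line below runs 5′ to 3′ on the gene's strand, and covers the matches with 5 bases on either side, in capitals on whichever strand they were read. The B2m line leaves out a further TGACG match, on the opposite strand 44 bases downstream of the start.
H2-K1, chr17:34000327-34000463, minus strand: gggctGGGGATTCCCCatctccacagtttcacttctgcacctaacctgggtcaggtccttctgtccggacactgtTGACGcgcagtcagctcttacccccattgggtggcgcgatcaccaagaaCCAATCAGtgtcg
H2-D1, chr17:35262918-35263053, plus strand: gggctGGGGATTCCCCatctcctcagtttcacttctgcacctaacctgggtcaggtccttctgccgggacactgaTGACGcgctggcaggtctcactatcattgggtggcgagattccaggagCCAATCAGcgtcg
H2-Q7, chr17:35439017-35439151, plus strand: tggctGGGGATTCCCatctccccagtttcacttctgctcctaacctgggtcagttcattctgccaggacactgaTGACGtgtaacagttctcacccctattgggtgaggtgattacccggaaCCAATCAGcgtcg
H2-T22, chr17:36042755-36042960, minus strand: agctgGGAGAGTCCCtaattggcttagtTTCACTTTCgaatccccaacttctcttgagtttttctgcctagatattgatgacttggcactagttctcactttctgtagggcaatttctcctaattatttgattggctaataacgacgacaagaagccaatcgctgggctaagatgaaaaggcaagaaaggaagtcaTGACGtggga
H2-T23, chr17:36032741-36032829, minus strand: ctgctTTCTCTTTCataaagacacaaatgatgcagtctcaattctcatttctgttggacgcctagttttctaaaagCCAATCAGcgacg
B2m, chr2:122147543-122147618, plus strand: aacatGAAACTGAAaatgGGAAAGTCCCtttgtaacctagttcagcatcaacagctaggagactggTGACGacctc
Tap1, chr17:34187329-34187479, plus strand: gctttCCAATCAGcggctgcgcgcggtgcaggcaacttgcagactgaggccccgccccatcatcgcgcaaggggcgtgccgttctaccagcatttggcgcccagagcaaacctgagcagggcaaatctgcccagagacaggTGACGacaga

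H2-K1, H2-D1 and H2-Q7 shared 1 layout: an NF-kB match, then TGACG, then a match to CTGATTGG on the opposite strand. The letters attggg also stand between TGACG and that match in each of these lines, and were not searched for. Which of them, if either, is the Y box of the SXY module was not tested. The gap from TGACG to the CTGATTGG match was 44 bases in H2-K1 and 43 bases in both H2-D1 and H2-Q7. It was 128 bases, in the opposite order, in Tap1. The NF-kB motif was present in 5 of the 8 promoters (H2-K1, H2-D1, H2-Q7, H2-T22 and B2m), and in 8.46% of the 32851 promoters of the table. CTGATTGG was likewise present in 5 (H2-K1, H2-D1, H2-Q7, H2-T23 and Tap1), against 4.1% of all promoters. TGACG was found in 6 of the 8, against 20.8%, and CTGATTGG together with TGACG in 4, against 0.998%. H2-T22, H2-T23 and B2m held the interferon-stimulated core, which 8.56% of all promoters hold. H2-K1, H2-D1 and H2-Q7 hold the letters gtttcacttct after the NF-kB match. These resemble that core on the opposite strand but do not match the pattern searched. A promoter without a match may therefore still hold such an element. The gamma-activated letters were in none of the 8, against 8.3% of all promoters, and the Tapbp window held no match to the motifs searched. In H2-T22 the NF-kB match came before the interferon-stimulated one, and in B2m after it. These are matches of letters and not measured sites.

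Levels were compared between genes per length, as TPM (length-scaled counts per 1000000 of their sum) from the gene lengths in the files. B2m was the most abundant of the 10 in each group, with a mean of 11533 ± 539 TPM (SD, n = 3) in CD103 negative, 12295 ± 775 TPM (n = 2) in CD103 low and 13408 ± 440 TPM (n = 2) in CpG CD103 high. H2-K1 came next at 2073 ± 194, 2507 ± 4.85 and 2734 ± 29.1 TPM in the same order, and then H2-D1 at 1540 ± 116, 1817 ± 114 and 1918 ± 118 TPM. Nlrc5 was the lowest, at 48.4 ± 22.9, 58.1 ± 0.968 and 86.3 ± 16.7 TPM.

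The middle of that order differed between groups. In CD103 negative, Tapbp (576 ± 70.0 TPM) and H2-T23 (554 ± 38.2 TPM) lay within their spread of each other and above Tap1 (461 ± 26.2 TPM). In CpG CD103 high, Tap1 had the highest mean of these genes (817 ± 57.0 TPM), with Tapbp at 729 ± 52.5 TPM and H2-T23 at 685 ± 2.67 TPM. In CD103 low, H2-T23 (547 ± 15.7 TPM), Tap1 (510 ± 23.1 TPM) and Tapbp (500 ± 1.90 TPM) were close together. Tap2, H2-Q7 and H2-T22 followed in that order in every group. Tap2 had 219 ± 8.36, 231 ± 2.79 and 347 ± 14.0 TPM in CD103 negative, CD103 low and CpG CD103 high. H2-Q7 had 132 ± 28.1, 161 ± 1.01 and 203 ± 7.91 TPM, and H2-T22 97.4 ± 7.97, 106 ± 2.14 and 129 ± 6.61 TPM.

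Proportions between the chains were compared across libraries. The classical genes H2-K1 and H2-D1 made up 81.6% to 84.6% of the TPM of the 5 heavy chains in every library. B2m stood at 2.26 to 2.81 TPM for each TPM of these 5 heavy chains together, and H2-K1 at 1.31 to 1.48 TPM for each TPM of H2-D1. Other heavy chain genes, such as H2-Q4, were not in these sums. The ratio of Tap1 to Tap2 in TPM was 2.31 and 2.41 in CpG CD103 high, above its range of 2.03 to 2.26 in the other libraries. The 10 genes together took 1.23% and 1.26% of all counts in CpG CD103 high, 1.09% and 1.13% in CD103 low and 0.984% to 1.02% in CD103 negative. That share was thus highest in CpG CD103 high and lowest in CD103 negative, with no overlap between groups. It leans on B2m, H2-K1 and H2-D1, which had the most counts. Taken singly and in CPM, 22% of all genes tested had CpG CD103 high wholly above CD103 negative. For CpG CD103 high above CD103 low the share of genes was 28.1%, and for CD103 low above CD103 negative 16.2%.

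**Figure D1:**
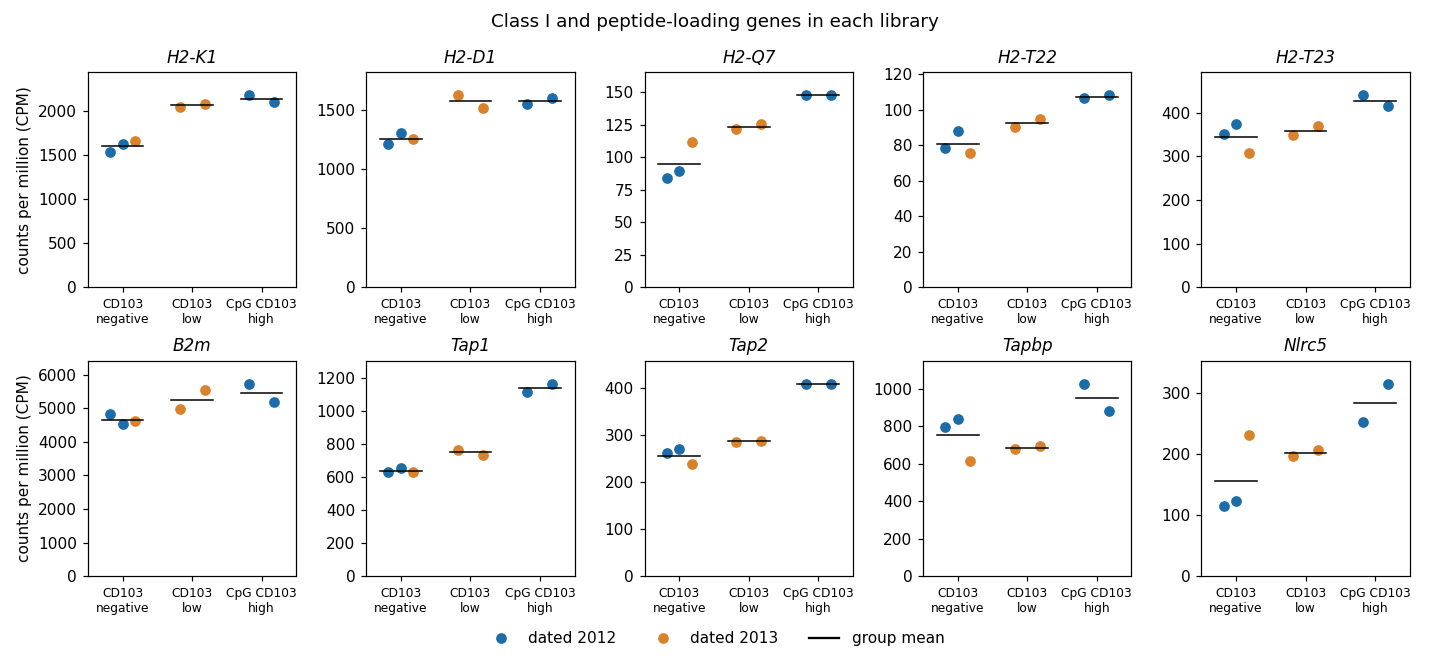
CPM of each of the 10 genes in the 7 libraries, 1 panel per gene with its own axis from 0, points for libraries coloured by labelled date and lines for group means. For Tap1, CpG CD103 high sits at 1117 and 1167 CPM, above all 5 other libraries, while for Nlrc5 the third CD103 negative library, at 230 CPM, stands above both CD103 low libraries.

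CpG CD103 high was set against CD103 negative to see which class I genes differed in the treated, CD103 high cells. Of the 10 genes, 9 were higher and 0 lower at an adjusted p under 0.05, the threshold used throughout, while Tapbp was not called. Among all 10863 genes tested, 15.6% were called higher and 12.7% lower. The largest differences were in the transactivator gene Nlrc5, the transporter genes Tap1 and Tap2 and the Qa-2 gene H2-Q7. The median log2 fold change of the 10 was 0.40, against -0.01 over all genes. In CPM, every one of the 10 had both CpG CD103 high libraries above all 3 CD103 negative libraries, as did 22% of all genes. In TPM, Nlrc5 overlapped slightly, at 74.5 in CpG CD103 high replicate 1 against 74.7 in CD103 negative replicate 3. The fit held the date as a term, so this contrast rests in effect on CD103 negative replicates 1 and 2. The count of 9 became 5 when CD103 negative replicate 1 was left out and 6 with DESeq2 or without the date term, and none was called lower in any of these.

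Nlrc5 had 252 and 315 CPM in CpG CD103 high, 114, 123 and 230 CPM in CD103 negative replicates 1 to 3 and 197 and 206 CPM in CD103 low. The CD103 negative replicates did not lie together: replicate 3 was nearly as high as the lower CpG CD103 high library. Against CD103 negative, Nlrc5 rose by 1.25 (log2, SE 0.11, adjusted p = 1.14e-06), a fold of 2.39. Without the date term, which averages the 3 CD103 negative libraries, the difference was 0.86 (adjusted p = 0.140) and the call was lost.

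Tap1, which encodes the first subunit of the peptide transporter, had 1117 and 1167 CPM in CpG CD103 high, 631, 655 and 633 CPM in CD103 negative and 768 and 733 CPM in CD103 low. Both CpG CD103 high libraries were far above the rest, and the CD103 low libraries lay between. Tap1 rose by 0.83 (SE 0.07, adjusted p = 1.97e-06). Tap2, the partner subunit, had 408 and 410 CPM in CpG CD103 high, 262, 270 and 238 CPM in CD103 negative and 287 CPM in each CD103 low library. The order of the groups was that of Tap1, with no overlap. Tap2 rose by 0.62 (SE 0.08, adjusted p = 4.72e-05), and both transporter genes were called under all 17 alternative settings of this comparison.

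The classical heavy chain genes rose less. H2-K1 had 2176 and 2093 CPM in CpG CD103 high, 1535, 1616 and 1660 CPM in CD103 negative and 2042 and 2074 CPM in CD103 low. CD103 low thus stood much nearer to CpG CD103 high than to CD103 negative. H2-K1 rose by 0.44 (SE 0.07, adjusted p = 0.000289). H2-D1 had 1552 and 1604 CPM in CpG CD103 high, 1212, 1304 and 1256 CPM in CD103 negative and 1628 and 1517 CPM in CD103 low. Its CD103 low and CpG CD103 high values overlapped, and both groups lay above CD103 negative. H2-D1 rose by 0.33 (SE 0.07, adjusted p = 0.00423), and its call was lost without CD103 negative replicate 1 (0.27, adjusted p = 0.0677).

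Among the non-classical genes, H2-Q7 had 148 CPM in each CpG CD103 high library, 83.7, 89.0 and 112 CPM in CD103 negative and 122 and 125 CPM in CD103 low. The groups did not overlap, and CD103 negative replicate 3 was nearest to CD103 low. H2-Q7 rose by 0.77 (SE 0.09, adjusted p = 3.59e-05). H2-T22 had 106 and 108 CPM in CpG CD103 high, 78.2, 88.2 and 75.8 CPM in CD103 negative and 90.4 and 94.7 CPM in CD103 low. It rose by 0.37 (SE 0.11, adjusted p = 0.0170), a call lost with DESeq2 and without either CpG CD103 high replicate 2 or CD103 negative replicate 1. H2-T23 had 441 and 416 CPM in CpG CD103 high, 352, 374 and 308 CPM in CD103 negative and 349 and 370 CPM in CD103 low. CD103 low lay inside the CD103 negative range. H2-T23 rose by 0.24 (SE 0.08, adjusted p = 0.0407), and was called in 6 of the 17 alternatives (adjusted p from 0.0368 to 0.213).

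Heavy chain genes are near copies of each other, and no source used here says how reads that map to several places were counted. Of the 50-base words of H2-T22 transcripts (GENCODE M21), 34.5% also occurred in another gene, most of them in H2-T10 (31.2%). The share was 26.4% for H2-Q7, 13.6% for H2-T23, 12.8% for H2-D1 and 9.63% for H2-K1. Words were pooled over all transcripts of a gene. They numbered 4499 for H2-Q7 and 3457 for H2-K1, against lengths of 1536 and 1646 bases in the count files. The shares therefore do not measure how much of the counted sequence is shared. It was 0.442% for Tap1, 0.655% for Tap2, 2.87% for Tapbp and 0 for B2m and Nlrc5. The counts of H2-T22 and H2-Q7 in particular could hold or lack reads of such copies.

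B2m, the light chain of every class I molecule, had 5735 and 5186 CPM in CpG CD103 high, 4819, 4533 and 4629 CPM in CD103 negative and 4981 and 5546 CPM in CD103 low. CpG CD103 high and CD103 low overlapped, and both lay above CD103 negative. B2m rose by 0.22 (SE 0.07, adjusted p = 0.0361) and was called in 7 of the 17 alternatives (adjusted p from 0.00762 to 0.229). Tapbp, which encodes tapasin, had 1026 and 878 CPM in CpG CD103 high, 797, 838 and 614 CPM in CD103 negative and 677 and 694 CPM in CD103 low. Its CD103 negative replicate 3 was the lowest of the 7 libraries. The difference of 0.22 (SE 0.08, adjusted p = 0.0646) did not pass the threshold, with a 95% interval of 0.04 to 0.40 before adjustment.

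**Figure D2:**
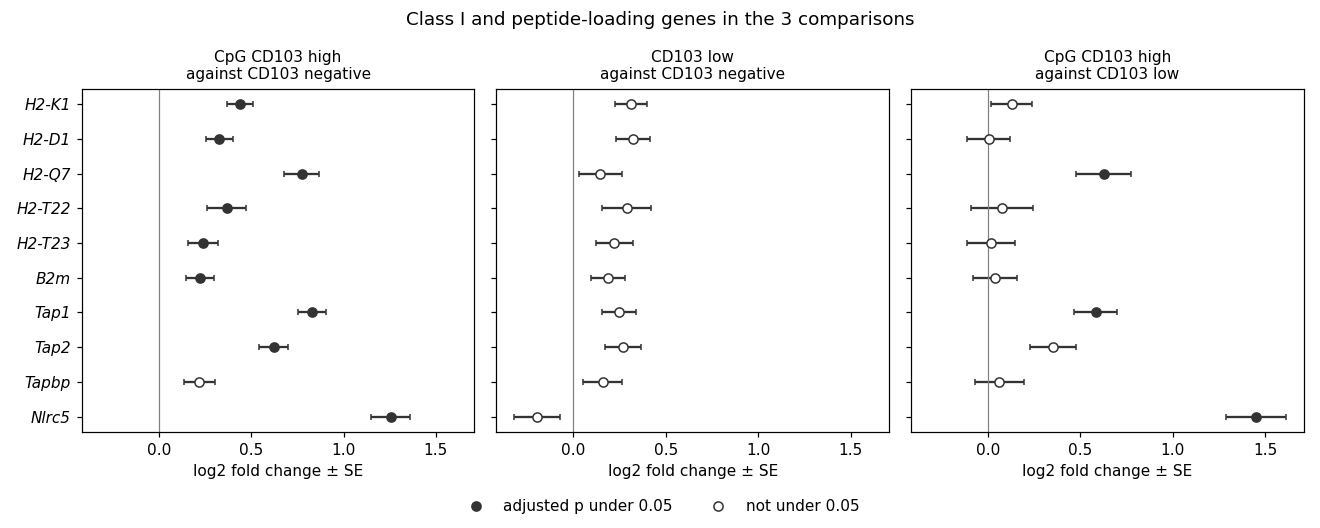
Log2 fold changes of the 10 genes in the 3 comparisons, 1 panel each, with bars of ± 1 SE and filled points for genes called at an adjusted p under 0.05. Filled points number 9 for CpG CD103 high against CD103 negative, 0 for CD103 low against CD103 negative and 3 for CpG CD103 high against CD103 low.

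CD103 low was compared with CD103 negative, both untreated, to see whether class I genes differed with the CD103 level alone. None of the 10 was called by edgeR's quasi-likelihood test, where 0.35% of all genes were called higher and 0.23% lower (63 genes, with 842 at an unadjusted p under 0.05). The log2 fold changes were above 0 for 9 of the 10 and had a median of 0.23, against 0.01 over all genes. In CPM, both CD103 low libraries lay above all 3 CD103 negative libraries in 7 of the 10, as they did in 16.2% of all genes. H2-T23, Tapbp and Nlrc5 overlapped. In TPM, H2-Q7, H2-T22 and B2m overlapped too, so this count depends on the scaling. For H2-Q7, CD103 negative replicate 3 had 163 TPM, against 160 and 162 TPM in CD103 low. Tapbp in TPM was slightly lower in both CD103 low libraries (498 and 501) than in CD103 negative replicate 3 (503).

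With the date term this contrast set both CD103 low libraries against CD103 negative replicate 3 alone. H2-D1 differed by 0.32 (SE 0.09, 95% interval 0.13 to 0.52, adjusted p = 0.214) and H2-K1 by 0.31 (SE 0.09, 0.13 to 0.49, adjusted p = 0.192). H2-T22 differed by 0.29 (SE 0.13), Tap2 by 0.27 (SE 0.10), Tap1 by 0.25 (SE 0.09) and H2-T23 by 0.22 (SE 0.10). B2m at 0.19 (SE 0.09), Tapbp at 0.16 (SE 0.10) and H2-Q7 at 0.15 (SE 0.12) had intervals that held 0, as did Nlrc5 at -0.20 (SE 0.13, -0.46 to 0.07). A rise of up to 0.52 in H2-D1 is thus within what these libraries allow. When CD103 negative replicate 3 was left out, and the date term with it, 4 genes were called higher and 1 lower, and Nlrc5 then stood at 0.73 in place of -0.20. The direction for Nlrc5 therefore turned on which CD103 negative libraries served as the reference.

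DESeq2 called 0 of the 10 genes as well in that comparison. The leave-one-out value without replicate 3 compares 2013 libraries with 2012 libraries, so there group and date cannot be told apart.

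Between CpG CD103 high and CD103 low, 3 of the 10 genes were higher and 0 lower, against 4.6% of all genes higher and 3.68% lower. The count was 1 without CD103 low replicate 2 and 5 without CD103 negative replicate 3 and its date term. Calls over all genes numbered 341 and 1877 in these settings, against 900 in the main fit. These 2 groups have no date in common, so their comparison runs through the CD103 negative libraries and is the test of whether the other contrasts differ. Nlrc5 was higher by 1.45 (SE 0.16, adjusted p = 0.000123), H2-Q7 by 0.63 (SE 0.15, adjusted p = 0.0172) and Tap1 by 0.58 (SE 0.12, adjusted p = 0.00693). For Tap2 the difference was 0.35 (SE 0.13, 95% interval 0.09 to 0.62, adjusted p = 0.0935). In CPM, both CpG CD103 high libraries lay above both CD103 low libraries in 8 of the 10 genes, all but H2-D1 and B2m. The same held in 28.1% of all genes. In TPM, B2m did not overlap either (13719 and 13096 against 11747 and 12843).

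The Nlrc5 difference shrank to 0.49 (adjusted p = 0.480) without the date term. In CPM, CpG CD103 high (252 and 315) lay above CD103 low (197 and 206) by less than the fitted difference. H2-Q7 was called in 9 of 16 alternatives. Tap1 kept its call in 15 of 16, and was not called without CD103 low replicate 2 (adjusted p = 0.0628), the library with the raised T cell markers. The classical genes did not differ beyond the spread: H2-K1 by 0.13 (95% interval -0.11 to 0.36) and H2-D1 by 0.00 (-0.25 to 0.25). The intervals were -0.28 to 0.44 for H2-T22, -0.26 to 0.29 for H2-T23, -0.21 to 0.29 for B2m and -0.22 to 0.34 for Tapbp, so differences within those bounds were not excluded.

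Replicate 3 of CD103 negative was set against replicates 1 and 2 by the date term. Nlrc5 was higher in 2013 by 0.96 (SE 0.12, adjusted p = 0.000539) and Tapbp lower, at -0.41 (SE 0.11, adjusted p = 0.0329), where 3.24% of all genes were called higher and 2.14% lower. H2-Q7 stood at 0.37 (SE 0.12, adjusted p = 0.0774). The other 7 genes lay between -0.24 and 0.08. The transactivator gene and the tapasin gene thus differed in opposite directions within 1 labelled group, and no source used here says what was done on either date.

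**Figure D3:**
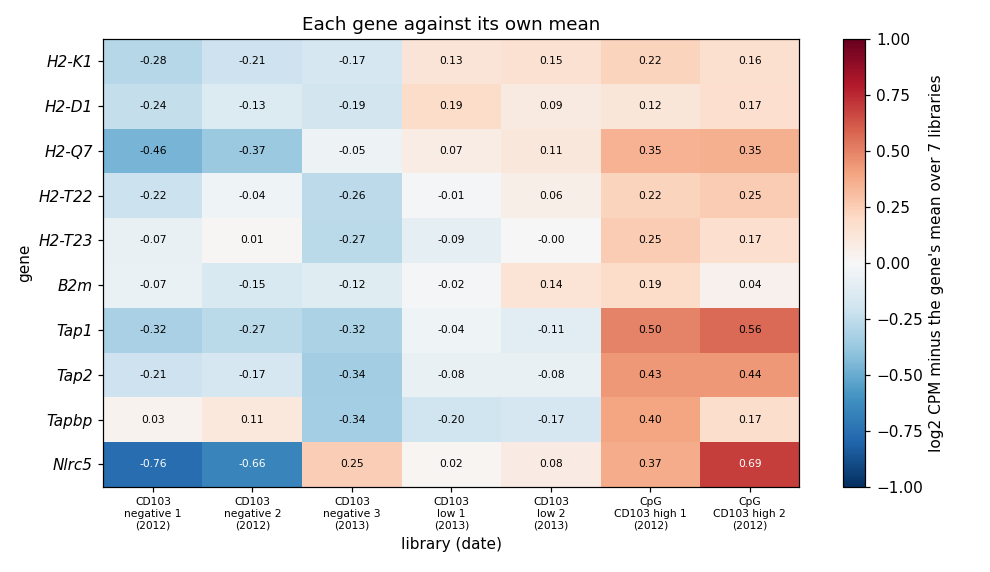
Log2 CPM of the 10 genes (rows) in the 7 libraries (columns), each centred on the gene's mean over the 7 libraries, on a colour scale of log2 units. Tap1 and Tap2 run in parallel, from 0.43 to 0.56 in CpG CD103 high, while Nlrc5 departs from them at CD103 negative replicate 3 (0.25, against -0.32 for Tap1 and -0.34 for Tap2).

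How alike the patterns were was measured as the root mean square difference of centred log2 CPM over the 7 libraries. Tap2 was 0.08 from Tap1, the nearest of the 10. From Nlrc5, the other 9 lay between 0.23 (H2-Q7) and 0.53 (Tapbp). Among the 7048 genes compared, those nearest to Nlrc5 were Fnbp4, Anks3, Zfp512b, Prpf39 and Gtpbp2, at 0.06 to 0.10, all with a date difference of 0.84 to 1.06 like that of Nlrc5. Nearest to Tap1 were Zbtb42, Jak3, Galns, Eps8 and Dip2a, at 0.03 to 0.07. Jak3 encodes a kinase of cytokine receptors.

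The wider class I pathway was read from 4 lists. Other class I heavy chains and class I-like genes were listed with 30 members, of which 12 were tested: 5 rose and 2 fell in CpG CD103 high against CD103 negative, where 15.6% of all genes were higher and 12.7% lower. The median of the 12 was 0.22, against -0.01 over all genes. H2-M2, a non-classical heavy chain gene, had 1.33 and 2.91 CPM in CpG CD103 high against 34.0, 27.4 and 32.8 CPM in CD103 negative and 24.1 and 24.4 CPM in CD103 low. It fell by 3.84 (SE 0.28, adjusted p = 2.36e-07), against the direction of the 9 called class I genes. Cd1d1, which encodes a class I-like protein that presents lipids, fell by 0.91 (SE 0.12, adjusted p = 5.69e-05), and Fcgrt, the neonatal Fc receptor gene, rose by 0.52 (SE 0.10, adjusted p = 0.00111). Both proteins pair with B2m. The other called risers were heavy chain genes: H2-Q4 (0.74, SE 0.15, adjusted p = 0.00606), H2-Q6 (0.69, SE 0.15, adjusted p = 0.00634), H2-T10 (1.05, SE 0.29, adjusted p = 0.0156) and H2-M5 (1.74, SE 0.55, adjusted p = 0.0352). H2-T10 is the gene that shares words with H2-T22. H2-M5 was low, at 3.11 and 9.41 CPM in CpG CD103 high. Without CpG CD103 high replicate 2, 3 of the list rose and 2 fell.

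Against CD103 low, where 4.6% of all genes were higher and 3.68% lower, 1 of the 12 was higher and 3 were lower: H2-M2 (-3.40, SE 0.37), Cd1d1 (-0.88, SE 0.18) and Hfe (-0.76, SE 0.17). Without CD103 low replicate 2, 0 were higher and 1 was lower. Hfe, the class I-like regulator of iron uptake, was also the 1 gene of all 4 lists called between CD103 low and CD103 negative. Its CPM was 320 and 339 in CD103 low, 212, 168 and 172 in CD103 negative and 219 and 211 in CpG CD103 high. Both CD103 low libraries stood above the other 5. The difference was 0.93 (SE 0.13, adjusted p = 0.00488), called in 16 of 17 alternatives and not without CD103 low replicate 2 (0.89, adjusted p = 0.115).

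Peptide loading and quality control in the endoplasmic reticulum had 2 of 19 tested members higher and 5 lower in CpG CD103 high against CD103 negative, and 12 not called. Of all genes, 15.6% were higher and 12.7% lower. The median of the 19 was -0.16, against -0.01 over all genes. Tapbpl, which encodes the tapasin-related peptide editor TAPBPR, rose by 0.41 (SE 0.09, adjusted p = 0.00261), with 183 and 182 CPM against 129 to 138 CPM. Canx, the chaperone calnexin of new heavy chains, fell by 0.36 (SE 0.08, adjusted p = 0.00395), and Pdia4, a disulfide isomerase gene, fell by 0.36 (SE 0.09, adjusted p = 0.00637). Without CD103 negative replicate 2 the list had 2 higher and 1 lower, and Canx (-0.29, adjusted p = 0.0601) and Pdia4 (-0.32, adjusted p = 0.0590) were not called. Pdia3 encodes ERp57 of the loading complex and had the most counts of the list, without regard to gene length. Its difference was 0.00 (SE 0.09) in CD103 low against CD103 negative and -0.09 (SE 0.12) in CpG CD103 high against CD103 low. No member of the 19 was called in those 2 comparisons.

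Peptide supply by the proteasome and cytosolic peptidases had 2 of 17 members higher and 5 lower in CpG CD103 high against CD103 negative, beside the same 15.6% and 12.7% of all genes, with a median of -0.17. Lap3, a leucine aminopeptidase gene, had 166 and 122 CPM in CpG CD103 high against 54.3 to 63.4 CPM in the other 5 libraries. It rose by 1.21 (SE 0.14, adjusted p = 2.66e-05) against CD103 negative and by 1.11 (SE 0.22, adjusted p = 0.00759) against CD103 low. Blmh, a cysteine peptidase gene, fell by 0.71 (SE 0.12, adjusted p = 0.000356) and Pomp, the proteasome assembly factor gene, fell by 0.52 (SE 0.08, adjusted p = 0.000320). The fall of Pomp followed the date as well, with 202 CPM in CD103 negative replicate 3 against 289 and 271 CPM in replicates 1 and 2, and it was not called without the date term (-0.38, adjusted p = 0.0960). The number of called members lower in this list was 2 when replicate 1 or 2 of CD103 negative, or replicate 2 of CpG CD103 high, was left out. Against CD103 low, 1 member was higher and 2 were lower (4.6% and 3.68% of all genes), and none was called without CD103 negative replicate 1 or without CD103 low replicate 2.

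Psmb9, the other called riser of that list, encodes the immunoproteasome subunit LMP2 and starts 226 bases from Tap1 on the other side of a shared promoter. It was chosen after its values were seen. It had 522 and 549 CPM in CpG CD103 high, 379, 402 and 301 CPM in CD103 negative and 389 and 393 CPM in CD103 low, and rose by 0.46 (SE 0.08, adjusted p = 0.000636). Psmb8, which encodes another immunoproteasome subunit, had 732 and 729 CPM in CpG CD103 high, against 746, 765 and 558 CPM in CD103 negative replicates 1 to 3. The date term was called for both genes, at -0.38 for Psmb9 (adjusted p = 0.0390) and -0.44 for Psmb8 (adjusted p = 0.0190). The Psmb8 difference between CD103 low and CD103 negative was 0.15 (SE 0.10, adjusted p = 0.822).

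Regulators of class I transcription had 11 of 29 members higher and 0 lower in CpG CD103 high against CD103 negative, and 8 higher and 0 lower against CD103 low. The shares of all genes called higher and lower were 15.6% and 12.7% in the former and 4.6% and 3.68% in the latter. Their medians were 0.07 and 0.14, so most members lay near 0. Irf1, an interferon response factor gene, had 315 and 285 CPM in CpG CD103 high, 158, 171 and 191 CPM in CD103 negative and 175 and 164 CPM in CD103 low. Only the CpG CD103 high libraries stood apart, and Irf1 rose by 0.87 (SE 0.09, adjusted p = 7.96e-06) against CD103 negative and 1.04 (SE 0.14, adjusted p = 0.000533) against CD103 low. Stat3, a signal transducer of cytokine receptors, rose by 0.80 (SE 0.09, adjusted p = 1.01e-05) and 0.77 (SE 0.13, adjusted p = 0.00302).

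Socs1, a feedback inhibitor of interferon signalling, had 28.2 and 23.1 CPM against 5.60 to 8.34 CPM in CD103 negative and rose by 1.88 (SE 0.24, adjusted p = 4.70e-05). Ciita, the class II counterpart of Nlrc5, had 1333 and 1367 CPM in CpG CD103 high, 879, 953 and 1008 CPM in CD103 negative and 1021 and 1041 CPM in CD103 low, and was higher than in CD103 low by 0.53 (SE 0.12, adjusted p = 0.0114). Irf8, the lineage factor of cDC1 and the gene with the most counts in the list, without regard to length, differed by 0.14 (SE 0.09, adjusted p = 0.777) between CD103 low and CD103 negative. None of the 29 was called in that comparison. When CD103 negative replicate 3 was left out, and the date term with it, 2 regulators, 4 genes of endoplasmic reticulum loading and 7 of peptide supply were lower in CD103 low, with 1 of peptide supply higher. Over all genes, 1250 were called in that setting, against 63 in the main fit. Group and date cannot be told apart there. The 8 called against CD103 low became 2 without CD103 low replicate 1 and 3 without CD103 low replicate 2, and 4 with DESeq2.

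**Figure D4:**
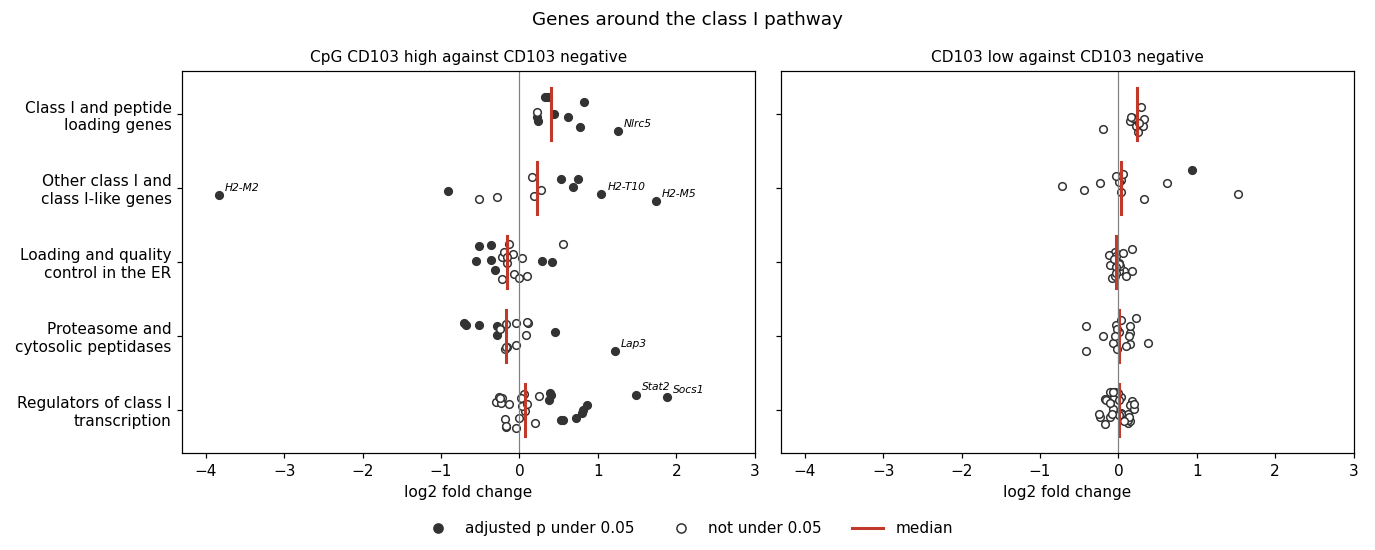
Log2 fold changes of the tested genes of the 4 lists and of the 10 genes, CpG CD103 high and CD103 low each against CD103 negative, with filled points for called genes, a bar at each median and the farthest called genes named. In CpG CD103 high the median of the 10 is 0.40, while those of endoplasmic reticulum loading (-0.16) and peptide supply (-0.17) lie below 0.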

How the data were processed

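The authors deposited raw read counts per gene, 1 file per library, with the gene length beside them, per the file headers. CASAVA, Subread 1.4.6, featureCounts and the mm10 build are listed without roles, per the submitters' processing notes. Strand setting, annotation release and treatment of multi-mapping reads were not given in the sources used here. A series-wide table has 7 columns that match no label, and it was not used.

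Counts were fitted with edgeR 4.0.16 in R 4.3.3: filterByExpr by group, TMM scaling, and a robust quasi-likelihood model of group and date over all 7 libraries with 3 residual degrees of freedom. P-values were adjusted by Benjamini-Hochberg over all 10863 genes tested and called under 0.05. The SE is the log2 fold change divided by the square root of F. Fold changes are on a log2 scale. Of the 27179 genes, 93% had a RefSeq symbol, and unmatched identifiers held 0.533% of counts. A count of 0 allows up to 3 counts, or 0.638 to 0.690 CPM, counting error only. The design text names biological replicates. All comparisons share the CD103 negative libraries through the date term.

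The members and lists were chosen with earlier results of these data known. All 10 members are named, and of each list up to 3 called genes by adjusted p per comparison, or the one with the most counts where none was called; 5 genes nearest to Nlrc5 and 5 nearest to Tap1 are named among tested genes of average log2 CPM 4 or more without a predicted name. Others were named after their values were seen. The test was tried on simulated data. Alternatives were scaling, filters, DESeq2 1.42.0, limma 3.58.1 voom, the date term, single dates, a replicate block, each library left out and, chosen after seeing the data, the non-robust fit and the recomputed lists. A planned protein comparison was not run, and shared transcript words were counted instead.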

Additional observations from a re-analysis of the deposited data

How the results depend on the processing

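For the 10 genes, the fold change in CpG CD103 high against CD103 negative was above 0 under all 17 alternatives. H2-K1, H2-Q7, Tap1 and Tap2 were called in all of them, Nlrc5 and H2-D1 in 16, H2-T22 in 14, B2m in 7, H2-T23 in 6 and Tapbp in 2. The number of the 10 called ran from 5 (without CD103 negative replicate 1) to 8 with 1 library left out, and was 9 without CD103 negative replicate 3 and its date term. In CD103 low against CD103 negative it ran from 0 to 5 (without CD103 negative replicate 3), and in CpG CD103 high against CD103 low from 1 (without CD103 low replicate 2) to 5 (without CD103 negative replicate 3). Over all genes, with 1 library left out, calls ran from 1901 (without CD103 negative replicate 1) to 2639, from 6 (without CD103 low replicate 2) to 108 (without CpG CD103 high replicate 1), and from 341 (without CD103 low replicate 2) to 1134. Leaving out CD103 negative replicate 3 with the date term gave 3068, 1250 and 1877. The main counts were 3068, 63 and 900 in that order. In the first, calls numbered 1668 without the date term and 1391 with DESeq2. In the second they numbered 22 without the date term, 35 with library totals, 193 with no filter, 36 with DESeq2, 19 with limma voom, 172 with the libraries of 2013 alone and 15 without the robust option, which was chosen after seeing the data. In the third they numbered 1490 with no filter and 376 with DESeq2. With library totals in place of TMM, the split of higher and lower calls was 9 and 26 in place of 38 and 25 for CD103 low, and 631 and 309 in place of 500 and 400 for CpG CD103 high against CD103 low. A replicate block in place of the date term gave 9, 4 and 5 called of the 10, and 1414 and 1972 calls over all genes in the comparisons with CD103 low. Same-numbered libraries correlated across genes at 0.168 (CD103 negative with CpG CD103 high), 0.00245 (CD103 negative with CD103 low) and -0.00641 (CD103 low with CpG CD103 high). The latter values compare libraries of different dates. These values therefore cannot decide whether the replicate numbers pair the samples.

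Signs turned in CD103 low against CD103 negative as follows. Without the date term, Tapbp was -0.13, Nlrc5 0.37, Pdia3 -0.14, Psmb8 -0.16 and Irf8 -0.11. Without CD103 negative replicate 3, H2-T23 was -0.042, Tapbp -0.28 (called), Nlrc5 0.73 (called), Pdia3 -0.23, Psmb8 -0.32 (called) and Irf8 -0.25 (called). With the replicate block, H2-T23 was -0.014, Tapbp -0.25, Nlrc5 0.76 (called), Pdia3 -0.20, Psmb8 -0.29 (called) and Irf8 -0.22. Pdia3 was also -0.0063 with relative log expression scaling, -0.11 with library totals, -0.021 with the stricter filter, -0.0037 with DESeq2 and -0.0089 with the libraries of 2013 alone. It was -0.0090 when CpG CD103 high replicate 2 was left out and -0.020 when CD103 low replicate 2 was, with 0.027 as the highest value with 1 library left out. In CpG CD103 high against CD103 low, Pdia3 was 0.12 without the date term, 0.14 without CD103 negative replicate 3 and 0.12 with the replicate block. There, H2-D1 was -0.0027 with no filter. With 1 library left out, H2-D1 ran from -0.051 (CD103 negative replicate 1) to 0.057, and was also below 0 for CpG CD103 high replicate 2 (-0.021) and CD103 low replicate 2 (-0.049). H2-T23 ran from -0.030 (CpG CD103 high replicate 1) to 0.061, or 0.27 without CD103 negative replicate 3, and was -0.028 for CD103 negative replicate 1 and for CD103 low replicate 1. H2-T22 was lowest at -0.0076 (CD103 negative replicate 1). B2m was -0.040 for CD103 low replicate 1, -0.039 for CpG CD103 high replicate 1 and -0.0050 for CD103 negative replicate 2, and Tapbp was -0.059 for CpG CD103 high replicate 1. The cause was not tested. With 2 or 3 libraries per group and 3 residual degrees of freedom, differences of the size seen in H2-T23, B2m and Tapbp are near the limit of what these data can call.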
